A study of Mus musculus with 30 samples.

Results

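The genes described here are 31 genes of cholesterol synthesis and sterol control, measured in mouse tail fibroblasts after 8 small molecules or the solvent DMSO. They were chosen by symbol: each row of the deposited gene table whose Ensembl identifier carries a listed symbol in the GENCODE M21 annotation was taken. All 31 were found among the 29861 genes listed, and all 31 were among the 13644 genes with at least 1 TPM (a transcript's share of all transcripts, scaled to a fixed total) in at least 3 libraries, which were the genes tested. By role they are 18 synthesis enzymes, 5 genes that sense sterols or carry the sterol signal, 3 genes of sterol uptake and transport inside the cell, and 5 genes of sterol efflux and its nuclear receptors.

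RNA sequencing of total RNA was done on 30 libraries of 1 cell line, CCG-HTA-1, made from tail fibroblasts of UMHet3 mice and used at passage 4. Each compound had 3 libraries and DMSO had 6, although the series text counts 5 DMSO replicates. Cells were grown in high-glucose DMEM without pyruvate at ambient oxygen and were harvested 48 hours after the compound was added, and every group shares these conditions. The labels give no dose. Donor mice were 5 to 8 weeks old, except that the label of 1 Dihydrorotenone library, replicate 1, gives 8 to 11 weeks. Antimycin A is known as a respiratory complex III inhibitor, Dihydrorotenone as a complex I inhibitor of the rotenone family, and Diphenyleneiodonium Cl as an inhibitor of flavin enzymes. Cardamonin is a plant chalcone, BerberineA is named here as the labels spell it, Clofilium tosylate is a potassium channel blocker, AEG 3482 is known as an inhibitor of apoptosis driven by the kinase JNK, and Podofilox binds tubulin. Since all libraries come from 1 cell line and nothing in the labels names separate animals, the p-values measure the spread between these libraries, which may be technical. The library numbers in the labels run in sequence within a group, so that an effect of that order and one of the compound cannot be told apart.

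Cholesterol is built from acetyl-CoA through mevalonate, isoprenoid units and squalene, and the sterol rings are then trimmed in many steps in the endoplasmic reticulum. When sterols in that membrane run low, SCAP carries the SREBP transcription factors to the Golgi for cutting, and the freed factors switch on the synthesis genes; when sterols are high, INSIG proteins hold SCAP back. Liver X receptors, which bind oxysterols, switch on the pumps that move cholesterol out of the cell, and fibroblasts both make their own cholesterol and take it up from serum lipoproteins.

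Depth is not known from TPM values, and the summed TPM of the rows ran from 927024 to 937134 per library, with 12229 to 12700 genes at 1 TPM or more. The 10 fibroblast markers (collagens, platelet-derived growth factor receptors and others) summed to 2742 to 9729 TPM per library, with 8735 to 9729 in DMSO and the lowest range, 2742 to 4035, in Cardamonin. Of other cell types, the keratinocyte, skeletal muscle and adipocyte lists summed to at most 2.43, 0.799 and 0.199 TPM, and the endothelial list to at most 8.71. The 5 macrophage markers summed to 17.5 to 45.1 TPM, mostly Cd68 (11.5 to 41.4). Adgre1 was at 1.62 to 12.1 TPM and Csf1r at 0.698 to 3.46 TPM. Itgam and Ptprc, the latter the pan-leukocyte marker, were under 1 TPM in every library. That sum was 28.8 to 45.1 in Cardamonin against 25.2 to 29.9 in DMSO. The part of these shifts in the results below was not tested.

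Stretches just before the start of 6 members are shown because they carry matches to motifs known from sterol-responsive promoters, and they were picked after the expression values had been seen. They come from RefSeq (GRCm38.p6), where 25 of the 31 members have a promoter entry, the others being Fdps, Fdft1, Sqle, Npc1, Stard4 and Abcg1. The motifs were sought on both strands in the 250 bases before the start: the sterol regulatory element TCACNCCAC bound by SREBP, the E-box CACGTG, the CCAAT box (ATTGG on the other strand) and, by name, the liver X receptor element, a direct repeat of AGGTCA with 4 bases between. The Hmgcs1 stretch (chr13:119690102-119690322, plus strand) holds 1 sterol regulatory element and 3 CCAAT boxes. The Insig1 stretch (chr5:28071184-28071328, plus strand) holds 1 CCAAT box and 1 E-box, and that of Hsd17b7 (chr1:169969262-169969382, minus strand) holds 2 of its CCAAT boxes and 1 E-box. Insig2 (chr1:121332602-121332737, minus strand) has 3 CCAAT boxes, Npc2 (chr12:84773171-84773199, minus strand) is shown with 1 of its CCAAT boxes, and Scap (chr9:110333304-110333333, plus strand, inside the gene as GENCODE M21 draws it) has 1 E-box. No match overlaps another in these stretches, capitals mark the matches, and each sequence reads 5′ to 3′ toward the gene.
Hmgcs1: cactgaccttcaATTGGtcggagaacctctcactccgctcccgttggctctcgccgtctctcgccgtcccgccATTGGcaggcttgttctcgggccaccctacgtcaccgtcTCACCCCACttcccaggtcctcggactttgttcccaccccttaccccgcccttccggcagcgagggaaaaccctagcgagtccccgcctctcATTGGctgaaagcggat
Insig1: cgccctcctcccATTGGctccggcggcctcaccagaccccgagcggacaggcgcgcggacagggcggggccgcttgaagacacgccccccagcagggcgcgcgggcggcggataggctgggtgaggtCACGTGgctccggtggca
Hsd17b7: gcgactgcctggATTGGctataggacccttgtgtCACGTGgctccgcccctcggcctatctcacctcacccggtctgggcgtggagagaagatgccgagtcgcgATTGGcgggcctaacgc
Insig2: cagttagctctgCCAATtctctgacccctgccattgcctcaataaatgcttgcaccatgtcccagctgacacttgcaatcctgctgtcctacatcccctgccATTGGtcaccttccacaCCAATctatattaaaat
Scap: cgccgccgggagCACGTGtggagggcggcg
Npc2: ccaagcgtgcctATTGGgtatagcgagat

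The CCAAT box stood before 14 of the 15 synthesis enzymes with an entry (93.3%), Acat2 being without one, and before 4 of the 5 sensing genes (Scap being without one). It stood before 1 of the 4 efflux and receptor genes with an entry, Mylip. Over all 27025 genes with an entry the share was 37.5%, and over the 17492 protein-coding ones 39.5%. The E-box was found before 6 of the 25 members (24%) against 6.86% of all genes: Hsd17b7, Sc5d, Dhcr7, Insig1, Scap and Abca1. The sterol regulatory element as spelled here was found before Hmgcs1 alone (4% of the 25 members) against 1.22% of all genes, and the liver X receptor element before none of the 25 against 0.0148%. A match describes the letters only, and a missing match says nothing about what binds there.

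In DMSO cells the members were spread over a wide range of levels. The sterol carrier Npc2, which binds cholesterol inside lysosomes, was highest at 434 ± 16.96 TPM (SD, n = 6), followed by Insig2 at 219.9 ± 19.8 TPM, the liver X receptor gene Nr1h2 at 104 ± 7.22 TPM and Fdps at 80.5 ± 8.62 TPM. The DMSO ranges of Insig2 and Npc2 were apart from each other and from the rest. Those of Nr1h2 and Fdps were also apart from each other (lowest Nr1h2 library 92.1, highest Fdps library 89.5 TPM). The range of Fdps (67.4 to 89.5) overlapped that of Srebf1 (65.3 to 75.8). The lowest were the efflux pump gene Abcg1 at 6.75 ± 0.872 TPM, the sterol carrier gene Stard4 at 10.5 ± 0.957 TPM and Hsd17b7 at 12.2 ± 1.11 TPM, and the ranges of Stard4 (9.17 to 11.8) and Hsd17b7 (11.2 to 14.3) overlapped. Hsd17b7 also overlapped other members, among them Nr1h3 (11.4 to 15.8). TPM values allow for transcript length, but a level also depends on how reads were shared between similar genes. Of the 31-base words in the Fdps transcripts, 24.6% also occur in those of the gene model Gm43738.

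Between 9 and 17 of the 18 synthesis enzymes were lower than in DMSO after 7 of the compounds. Of all genes tested, 9.16% to 33.0% were lower after those 7. AEG 3482 alone had more enzymes higher (8) than lower (4). All genes ran the same way there, with 41.3% higher and 26.8% lower. Summed over the 18 enzymes, the level was 547 ± 41.6 TPM in DMSO (SD, n = 6, 484 to 614 over the libraries). It was 336 ± 9.54 TPM in Cardamonin (n = 3 here and for each compound), 373 ± 13.97 TPM in Antimycin A, 401 ± 21.9 TPM in Podofilox, 422 ± 6.30 TPM in BerberineA and 426 ± 10.2 TPM in Diphenyleneiodonium Cl. Clofilium tosylate stood at 439.7 ± 15.9 TPM, Dihydrorotenone at 478 ± 5.54 TPM and AEG 3482 at 609 ± 23.4 TPM. Values are shares of a library's RNA, so that fewer cells expressing a gene and less of its RNA per cell cannot be told apart. The 8 compounds are all set against the same 6 DMSO libraries, and so the comparisons are not independent of each other.

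Each compound was compared with DMSO in 1 limma fit on log2(TPM + 1) over all 30 libraries, and a gene is called higher or lower at an adjusted p under 0.05, Benjamini-Hochberg over all 13644 genes. Differences are on the log2(TPM + 1) scale, which understates the change of low genes. After Antimycin A, 3 of the 31 members were higher and 22 lower, against 21.8% of all genes tested higher and 15.5% lower. After Dihydrorotenone the counts were 1 higher and 13 lower, against 4.95% and 9.43% of all genes. Diphenyleneiodonium Cl had 4 higher and 16 lower (14.0% and 11.7% of all genes), and BerberineA 1 higher and 18 lower (12.6% and 9.16%). Clofilium tosylate had 3 higher and 16 lower, beside 10.9% and 12.5% of all genes. Cardamonin had 4 higher and 22 lower, with 37.3% and 33.0% of all genes called, and Podofilox 1 higher and 20 lower, with 26.2% and 20%. With AEG 3482, 14 members were higher and 9 lower, where 41.3% and 26.8% of all genes were called, so that its counts lie near the background, while under the other 7 compounds a larger share of the members than of all genes was lower. The Dihydrorotenone count rests on small differences: it was 6 in all without replicate 1, whose label gives another donor age. It was 8 without replicate 2, where the full set gave 14.

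**Figure D1:**
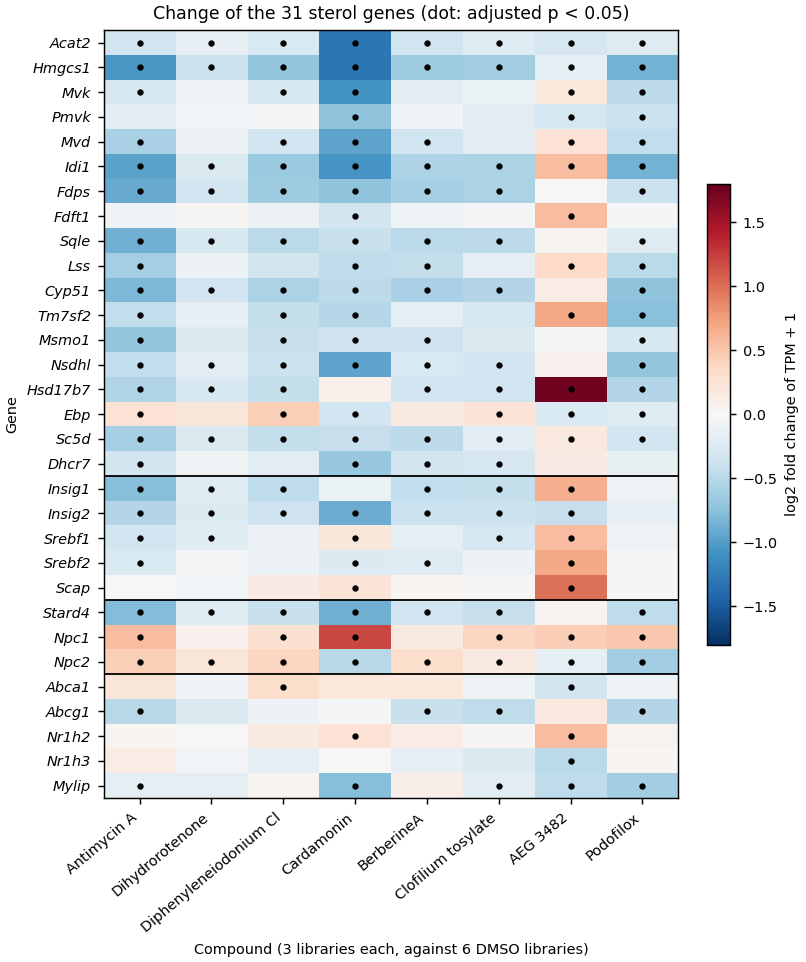
Log2 difference from DMSO on the log2(TPM + 1) scale for the 31 members (rows, grouped by role) after each of the 8 compounds (columns), with a dot where limma's adjusted p was under 0.05. Hmgcs1 and Acat2 are lower in all 8 columns, while Npc1 is above 0 in all 8 and passes in 6.

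The largest falls of any member were those of Hmgcs1 and Acat2 in Cardamonin. Hmgcs1 (chr13:119690379-119708260), the cytosolic synthase that makes the precursor of mevalonate, was in DMSO at 48.9 TPM at the lowest, 55.5 at the median and 65.4 at the highest. It was at 20.96, 22.4 and 22.6 TPM in the Cardamonin libraries, 26.96, 26.2 and 25.5 with Antimycin A, 30.3, 27.6 and 33.4 with Podofilox and 35.6, 32.5 and 32.8 with Diphenyleneiodonium Cl. The remaining libraries were at 37.2, 36.3 and 32.7 (BerberineA), 38.3, 31.8 and 36.4 (Clofilium tosylate), 43.5, 39.98 and 43.5 (Dihydrorotenone) and 50.6, 48.5 and 47.7 TPM (AEG 3482). Every library of the first 7 compounds lay below every DMSO library, and AEG 3482 overlapped DMSO. Hmgcs1 fell in all 8 comparisons, from -1.30 (SE 0.071, limma adjusted p = 1.26e-14) in Cardamonin and -1.05 (SE 0.071, limma adjusted p = 1.80e-11) in Antimycin A to -0.38 (SE 0.071, limma adjusted p = 6.61e-04) in Dihydrorotenone and -0.18 (SE 0.071, limma adjusted p = 0.0314) in AEG 3482. The AEG 3482 call was lost without replicate 2 or 3 of that compound, without DMSO replicate 5, and with the compared groups fitted alone.

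Acat2 (chr17:12942890-12960747), the cytosolic thiolase that joins the first acetyl units, was the member furthest below DMSO in Cardamonin beside Hmgcs1. Its DMSO libraries were at 35.2 TPM at the lowest, 37.97 at the median and 41.5 at the highest. Cardamonin libraries were at 16.01, 14.4 and 14.2 TPM, less than any other library. The other groups lay above Cardamonin: 29.95, 29.6 and 29.7 with Antimycin A, 32.3, 31.2 and 30.2 with Diphenyleneiodonium Cl, 29.2, 30.4 and 28.6 with BerberineA and 30.9, 31.6 and 29.6 with AEG 3482. Clofilium tosylate gave 32.6, 33.3 and 31.1, Podofilox 32.3, 31.4 and 33.2 and Dihydrorotenone 33.9, 33.1 and 35.4 TPM, the last being the only group that overlapped DMSO. The difference was -1.30 (SE 0.046, limma adjusted p = 1.91e-18) in Cardamonin and between -0.36 and -0.15 in the other 7, where all 7 passed. Of the 31-base words in the Acat2 transcripts, 43.7% also occur in those of its neighbour paralog Acat3, so that its level depends on how reads were shared between them.

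Mevalonate is then phosphorylated by Mvk and Pmvk and decarboxylated by Mvd. These 3 genes fell most in Cardamonin, by 1.07, 0.72 and 0.95 on the log2 scale, where the Mvk libraries stood at 10.6 to 12.7 TPM against 22.02 to 27.8 in DMSO. Mvd also fell in Antimycin A (-0.58), Podofilox (-0.44), Diphenyleneiodonium Cl (-0.35) and BerberineA (-0.35). Mvk fell in Antimycin A, Diphenyleneiodonium Cl and Podofilox, and Pmvk in AEG 3482 and Podofilox besides Cardamonin. In AEG 3482 Mvk and Mvd rose by 0.18 and 0.26, calls that were lost after the libraries were rescaled by median ratios.

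Idi1 (chr13:8885501-8892451) isomerises the basic isoprenoid unit and fell in 7 comparisons and rose in 1. In DMSO it was at 24.8 TPM at the lowest, 26.5 at the median and 32.5 at the highest. Libraries were at 11.8, 12.8 and 12.8 TPM after Cardamonin, 14.7, 13.3 and 12.5 after Antimycin A, 13.3, 14.9 and 15.6 after Podofilox and 16.6, 16.4 and 17.02 after Diphenyleneiodonium Cl. BerberineA gave 18.6, 18.2 and 17.9, Clofilium tosylate 20.4, 15.2 and 18.5, Dihydrorotenone 23.1, 21.9 and 22.4 and AEG 3482 42.9, 39.7 and 38.7 TPM. No group overlapped DMSO: AEG 3482 was above all 6 of its libraries and the other 7 below. The fall in Dihydrorotenone (-0.26, SE 0.075, limma adjusted p = 0.0197) lost its call in 6 of 19 settings. Among them were median-ratio scaling, quantile normalization, the replicate block and the groups fitted alone. The differences were -1.06 (SE 0.075, limma adjusted p = 2.16e-12) in Cardamonin, -0.96 (SE 0.075, limma adjusted p = 2.26e-10) in Antimycin A, -0.85 (SE 0.075, limma adjusted p = 8.62e-10) in Podofilox and 0.56 (SE 0.075, limma adjusted p = 3.72e-07) in AEG 3482. Idi1 shares 18.4% of its 31-base words with another gene model, Gm13502.

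Fdps (chr3:89093588-89101959), which makes farnesyl pyrophosphate for sterols and for protein prenylation, was among the 3 members furthest from DMSO in Antimycin A, Dihydrorotenone, Diphenyleneiodonium Cl, BerberineA and Clofilium tosylate. DMSO libraries were at 67.4 TPM at the lowest, 81.2 at the median and 89.5 at the highest. Levels were at 44.2, 45.4 and 37.8 with Antimycin A, 47.05, 43.6 and 54.2 with Cardamonin, 48.3, 50.9 and 53.4 with Diphenyleneiodonium Cl and 53.7, 52.4 and 51.3 with BerberineA. Clofilium tosylate gave 60.6, 51.4 and 49.6, Podofilox 57.4, 60.2 and 65.8, Dihydrorotenone 69.9, 62.3 and 57.3 and AEG 3482 77.6, 86.9 and 77.6 TPM. Dihydrorotenone and AEG 3482 overlapped DMSO and the other 6 groups did not. Fdps was at -0.91 (SE 0.086, limma adjusted p = 6.56e-09) in Antimycin A and -0.34 (SE 0.086, limma adjusted p = 0.00805) in Dihydrorotenone, and in AEG 3482 it did not pass (0.0076, SE 0.086, limma adjusted p = 0.948). It shares 24.6% of its 31-base words with Gm43738.

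Squalene is made by Fdft1 and oxidised by Sqle, and the pair gave different counts of calls. Sqle fell in 7 comparisons, from -0.86 in Antimycin A (14.8 to 16.04 TPM against 25.8 to 32.7) to -0.24 in Podofilox. Fdft1 passed in only 2: it fell in Cardamonin (-0.32) and rose in AEG 3482 (0.56, 34.5 to 37.9 TPM against 21.5 to 26.2 in DMSO). In the other 6 its difference lay between -0.11 and 0.025. Whether Fdft1 and Sqle differ from each other was not tested. Of the 31-base words in the Fdft1 transcripts, 14.3% also occur in those of the gene model Gm6781. Sqle shares 0.826% of its words with any other gene.

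**Figure D2:**
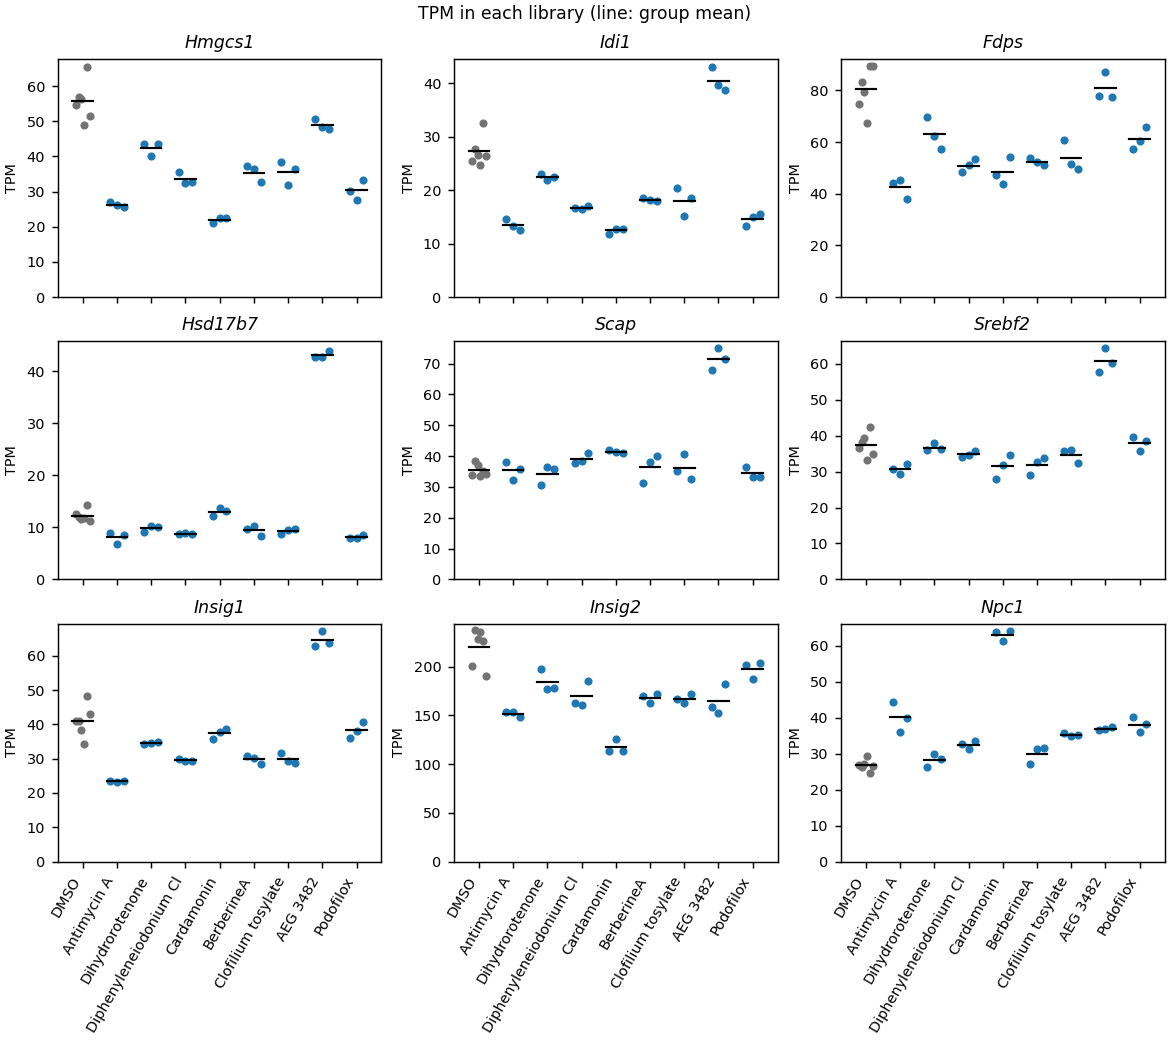
TPM of 9 members in every library (points) for DMSO and the 8 compounds, with group means as short lines and 1 panel per gene on its own axis. Hsd17b7 and Scap stand above all other groups in AEG 3482, Npc1 in Cardamonin, and Hmgcs1 lies below DMSO in 7 groups without overlap.

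Of the enzymes that close and trim the sterol rings, Cyp51 (chr5:4081145-4104746), the lanosterol demethylase, fell in 7 comparisons. Its DMSO libraries were at 22.8 TPM at the lowest, 27.1 at the median and 33.1 at the highest. Antimycin A libraries were at 15.2, 15.9 and 14.2 TPM, Podofilox at 16.3, 14.3 and 17.7, BerberineA at 20.6, 14.04 and 18.96 and Diphenyleneiodonium Cl at 15.9, 17.04 and 20.98. Clofilium tosylate gave 18.5, 18.4 and 18.3, Cardamonin 19.02, 21.9 and 17.2, Dihydrorotenone 22.3, 20.4 and 20.7 and AEG 3482 30.99, 32.4 and 26.04 TPM. Only AEG 3482 overlapped DMSO, with a difference of 0.13 (SE 0.11, limma adjusted p = 0.311). The falls were -0.59 (SE 0.11, limma adjusted p = 3.15e-04) in BerberineA, -0.80 in Antimycin A and -0.34 (SE 0.11, limma adjusted p = 0.0394) in Dihydrorotenone, the last being lost after rescaling by median ratios and in other settings.

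Hsd17b7 (chr1:169949535-169969241), the ketoreductase that completes removal of the extra methyl groups, gave the largest rise of any member. DMSO libraries were at 11.2 TPM at the lowest, 11.8 at the median and 14.3 at the highest. AEG 3482 libraries were at 42.8, 42.7 and 43.9 TPM, above every other library of the study. Cardamonin libraries, at 12.2, 13.8 and 13.1, overlapped DMSO. The other groups were all below DMSO: 8.86, 6.89 and 8.59 with Antimycin A, 9.15, 10.3 and 10.02 with Dihydrorotenone, 8.69, 8.90 and 8.69 with Diphenyleneiodonium Cl, 9.76, 10.2 and 8.32 with BerberineA, 8.76, 9.54 and 9.63 with Clofilium tosylate and 8.00, 8.00 and 8.45 with Podofilox. Hsd17b7 rose in AEG 3482 by 1.74 (SE 0.072, limma adjusted p = 6.89e-17), fell in 6 compounds by up to 0.54 (Antimycin A), and did not pass in Cardamonin (0.088, limma adjusted p = 0.278). In the direct contrasts it was higher in AEG 3482 than in each other compound, by the least against Cardamonin (-1.65, Cardamonin minus AEG 3482, SE 0.083, limma adjusted p = 1.50e-14).

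Tm7sf2 (chr19:6062821-6068373), a sterol reductase that acts after Cyp51, also rose in AEG 3482 and fell most in Podofilox. DMSO libraries were at 13.05 TPM at the lowest, 16.7 at the median and 21.3 at the highest. AEG 3482 was at 25.6, 30.6 and 27.99 TPM, Podofilox at 9.60, 9.09 and 10.3, Cardamonin at 9.32, 12.97 and 12.6 and Antimycin A at 12.5, 13.5 and 10.7. Diphenyleneiodonium Cl gave 10.7, 13.4 and 12.9, Clofilium tosylate 13.99, 14.8 and 11.7, BerberineA 14.5, 15.8 and 14.8 and Dihydrorotenone 16.1, 16.4 and 13.3 TPM. AEG 3482, Podofilox and Cardamonin were apart from DMSO and the other 5 overlapped it. The differences were 0.69 (SE 0.12, limma adjusted p = 8.95e-06) in AEG 3482 and -0.75 (SE 0.12, limma adjusted p = 6.67e-06) in Podofilox. It shares 10.7% of its 31-base words with the adjoining gene Vps51.

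The other ring enzymes followed the common fall to differing degrees. Nsdhl, a dehydrogenase of the same demethylation, fell in 7 comparisons, most in Cardamonin (-0.95) and Podofilox (-0.70). Sc5d, a desaturase of the last steps, fell in 7, between -0.59 in Antimycin A and -0.20 in Clofilium tosylate, the last lost under most other settings. Msmo1, the methylsterol oxidase, fell in 5 (-0.69 in Antimycin A the most). Lss, which closes the rings, fell in 4 (-0.61 in Antimycin A the most), and Dhcr7, a last reductase, in 4 (-0.69 in Cardamonin the most). The Lss call in BerberineA was lost in 9 of 19 settings and that in Podofilox in 1. Dhcr7 calls were lost in 3 settings each in BerberineA and Clofilium tosylate and in 1 in Antimycin A. Msmo1 calls were lost in 2 settings in BerberineA and 4 in Podofilox. Ebp, the sterol isomerase, was the exception among the enzymes: it rose in Diphenyleneiodonium Cl (0.43, SE 0.084, limma adjusted p = 3.83e-04; 57.2 to 67.7 TPM against 39.8 to 51.8 in DMSO), Antimycin A (0.26) and Clofilium tosylate (0.24). It fell in Cardamonin (-0.34), AEG 3482 (-0.28) and Podofilox (-0.22). Of these 6 calls only the 2 in Diphenyleneiodonium Cl and Cardamonin held in every setting tried.

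Set against all genes, the median of the 18 synthesis enzymes was -0.60 in Cardamonin (all genes tested 0.033), -0.56 in Antimycin A (0.032) and -0.42 in Podofilox (0.036). It was -0.40 in Diphenyleneiodonium Cl (0.017), -0.36 in BerberineA (0.023), -0.28 in Clofilium tosylate (-0.000154) and -0.18 in Dihydrorotenone (-0.033). In AEG 3482 it was 0.14 beside 0.10 for all genes, so that the list stood close to the whole table. Enzymes called lower are given with the share of all genes called lower. They numbered 17 of 18 in Cardamonin (33.0%), 16 in Podofilox (20%) and 15 in Antimycin A (15.5%). Diphenyleneiodonium Cl (11.7%) and BerberineA (9.16%) had 13 each. Clofilium tosylate had 10 (12.5%), Dihydrorotenone had 9 (9.43%) and AEG 3482 had 4 (26.8%). Enzymes called higher numbered 8 of 18 in AEG 3482 (Hsd17b7, Tm7sf2, Fdft1, Idi1, Lss, Mvd, Mvk and Sc5d), where 41.3% of all genes were higher. One enzyme, Ebp, was higher in Antimycin A (21.8% of all genes), Diphenyleneiodonium Cl (14.0%) and Clofilium tosylate (10.9%). The other 4 compounds had 0, with 4.95% to 37.3% of all genes higher. After rescaling by median ratios 4 of the 8 held in AEG 3482 (Hsd17b7, Tm7sf2, Fdft1 and Idi1). Without AEG 3482 replicate 2 or DMSO replicate 4, 5 enzymes were called higher there, and without AEG 3482 replicate 3, 2 were called lower. With DMSO and Dihydrorotenone fitted alone 2 enzymes were called lower in Dihydrorotenone, without Dihydrorotenone replicate 1 there were 4, and without its replicate 3 there were 5.

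Of the 5 sensing genes 4 rose and 1 fell in AEG 3482, where 41.3% of all genes were higher and 26.8% lower. Scap was higher in AEG 3482 than in each other compound by the direct contrasts. Scap (chr9:110333288-110384950), the escort of SREBP, was in DMSO at 33.4 TPM at the lowest, 34.6 at the median and 38.3 at the highest. AEG 3482 libraries were at 67.97, 74.99 and 71.5 TPM, above every other library of the study. The other groups were at 38.1, 32.3 and 35.7 (Antimycin A), 30.6, 36.6 and 35.7 (Dihydrorotenone), 37.9, 38.4 and 40.9 (Diphenyleneiodonium Cl), 42.1, 41.3 and 40.9 (Cardamonin), 31.3, 38.03 and 39.9 (BerberineA), 35.02, 40.6 and 32.6 (Clofilium tosylate) and 36.5, 33.3 and 33.3 TPM (Podofilox). Of these only Cardamonin lay apart from DMSO. Scap rose by 0.998 (SE 0.073, limma adjusted p = 6.91e-12) in AEG 3482 and by 0.23 (SE 0.073, limma adjusted p = 0.00805) in Cardamonin, where the call was lost under quantile normalization and with the replicate block, and the direct difference was -0.77 (Cardamonin minus AEG 3482, SE 0.084, limma adjusted p = 2.10e-08).

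Srebf2, whose product drives the cholesterol genes, rose in AEG 3482 by 0.69 (SE 0.067, limma adjusted p = 1.38e-09), with libraries at 57.9 to 64.5 TPM against 33.3 to 42.5 in DMSO. It fell in Antimycin A (-0.28), Cardamonin (-0.25) and BerberineA (-0.23). Srebf1, whose product leans to fatty acid genes, rose in AEG 3482 (0.56) and Cardamonin (0.20). It fell in Antimycin A (-0.35), Clofilium tosylate (-0.31) and Dihydrorotenone (-0.22). Its call in Dihydrorotenone was lost in 12 of 19 settings and that in Cardamonin in 3. RNA levels of these genes do not measure the cut, active proteins.

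The retention genes Insig1 and Insig2 did not move alike in every compound. Insig1, itself a known SREBP target, was at 34.4 to 48.4 TPM in DMSO, 62.99 to 67.2 in AEG 3482 and 23.3 to 23.6 in Antimycin A, with no overlap between the 3 groups. It rose by 0.65 (SE 0.064, limma adjusted p = 1.59e-09) in AEG 3482 and fell in Antimycin A (-0.77, SE 0.064, limma adjusted p = 4.86e-10), Diphenyleneiodonium Cl (-0.45), BerberineA (-0.44), Clofilium tosylate (-0.44) and Dihydrorotenone (-0.23). In Cardamonin, where 17 of the 18 enzymes fell, it did not pass (-0.12, limma adjusted p = 0.086; 35.9 to 38.6 TPM), nor did it in Podofilox (-0.09, limma adjusted p = 0.267). Insig1 was lower in Antimycin A than in Cardamonin by the direct contrast, -0.65 (Antimycin A minus Cardamonin, SE 0.074, limma adjusted p = 2.32e-08). Insig2, the isoform with the higher level here, fell in 7 comparisons, most in Cardamonin (-0.89, SE 0.066, limma adjusted p = 6.18e-12; 113 to 126 TPM against 190.1 to 238) and also in AEG 3482 (-0.42), and did not pass in Podofilox (-0.15).

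The 3 uptake and transport genes did not move as a group. Npc1, the membrane protein that exports cholesterol from lysosomes, was in DMSO at 24.7 TPM at the lowest, 26.6 at the median and 29.3 at the highest. Cardamonin libraries were at 63.7, 61.2 and 64.1 TPM, above every other library of the study. Antimycin A gave 44.3, 35.9 and 39.8, Podofilox 40.1, 35.8 and 38.1, AEG 3482 36.5, 36.7 and 37.3 and Clofilium tosylate 35.6, 34.9 and 35.2 TPM. Diphenyleneiodonium Cl was at 32.5, 31.3 and 33.5, BerberineA at 27.2, 31.1 and 31.6 and Dihydrorotenone at 26.2, 29.8 and 28.6 TPM, and only the last 2 overlapped DMSO. Npc1 rose in 6 comparisons, from 1.21 (SE 0.058, limma adjusted p = 7.81e-16) in Cardamonin to 0.27 in Diphenyleneiodonium Cl, and did not pass in BerberineA (0.16) or Dihydrorotenone (0.072).

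Its partner Npc2 passed in all 8 comparisons but in both directions. It rose in Antimycin A (0.42, SE 0.035, limma adjusted p = 6.52e-10; 554 to 598 TPM against 413 to 460.0 in DMSO), Diphenyleneiodonium Cl (0.38), BerberineA (0.32), Dihydrorotenone (0.21) and Clofilium tosylate (0.16). It fell in Podofilox (-0.62, SE 0.035, limma adjusted p = 2.92e-13; 274 to 292 TPM), Cardamonin (-0.50) and AEG 3482 (-0.16). In those 3 compounds Npc1 rose while Npc2 fell. Stard4, a cytosolic sterol carrier known to follow SREBP, moved with the enzymes instead: it fell in 7 comparisons, from -0.87 in Cardamonin and -0.78 in Antimycin A to -0.24 in Dihydrorotenone, and was at 0.044 in AEG 3482 (limma adjusted p = 0.611).

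Of the 5 efflux and receptor genes, 4 passed in AEG 3482, where 41.3% of all genes were higher and 26.8% lower. In each other compound 0 to 2 passed, where 4.95% to 37.3% of all genes were higher and 9.16% to 33.0% lower. Over so few genes, nothing is read from these counts about the list. Mylip, an E3 ubiquitin ligase induced by liver X receptors that degrades lipoprotein receptors, fell in Cardamonin (-0.76, SE 0.068, limma adjusted p = 2.42e-10; 18.3 to 21.3 TPM against 32.4 to 36.9 in DMSO), Podofilox (-0.63), AEG 3482 (-0.46), Clofilium tosylate (-0.19) and Antimycin A (-0.18), the last 2 being lost in several settings. The efflux pump gene Abcg1 fell in Podofilox (-0.52), Antimycin A (-0.50), Clofilium tosylate (-0.45) and BerberineA (-0.40). Abca1, the pump that loads cholesterol onto apolipoprotein, rose in Diphenyleneiodonium Cl (0.32), a call lost without replicate 1 or 3 of that compound and with the groups fitted alone, and fell in AEG 3482 (-0.33). Of the liver X receptor genes, Nr1h2 rose in AEG 3482 (0.56, SE 0.069, limma adjusted p = 8.99e-08) and Cardamonin (0.26), and Nr1h3 fell in AEG 3482 (-0.48, SE 0.1, limma adjusted p = 2.08e-04) and passed nowhere else.

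**Figure D3:**
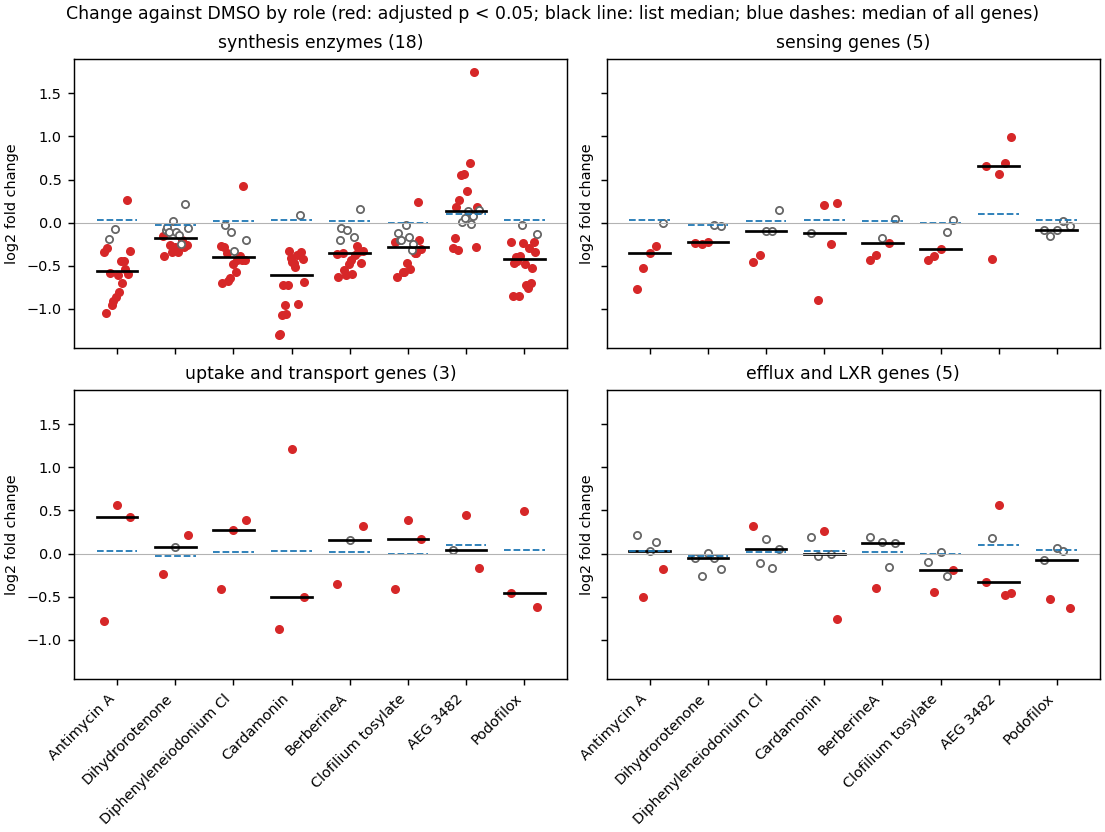
Log2 difference from DMSO of each member (points) by role for each compound, with a line at the role's median and a dashed line at the median of all 13644 genes. Filled red points passed the test; the synthesis median is below 0 in 7 compounds, and the efflux and receptor median lies between -0.33 and 0.12.

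The medians of the 4 roles are set side by side here. In Antimycin A they were -0.56 for synthesis, -0.35 for sensing, 0.42 for uptake and transport and 0.028 for efflux and receptors. In Cardamonin the same order gave -0.60, -0.12, -0.50 and -0.0064, and in Podofilox -0.42, -0.089, -0.45 and -0.081. Listed the same way, Diphenyleneiodonium Cl gave -0.40, -0.10, 0.27 and 0.049, and BerberineA -0.36, -0.23, 0.16 and 0.12. Clofilium tosylate gave -0.28, -0.31, 0.16 and -0.19, and Dihydrorotenone -0.18, -0.22, 0.072 and -0.057. In AEG 3482 sensing was the highest at 0.65, with 0.14 for synthesis, 0.044 for uptake and transport and -0.33 for efflux and receptors. The ranking of the roles differed between compounds. The efflux and receptor median lay between -0.33 in AEG 3482 and 0.12 in BerberineA. These medians over 3 to 18 genes describe the lists and were not tested against each other.

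AEG 3482 was then set against each other compound in the same fit, and most enzymes were higher in it each time. Of the 18 synthesis enzymes, 17 were higher in AEG 3482 than in Cardamonin (32.7% of all genes), 15 than in Antimycin A (37.4%), 15 than in Diphenyleneiodonium Cl (38.2%) and 15 than in BerberineA (37.4%). It was 14 against Clofilium tosylate (39.7%), 14 against Podofilox (35.2%) and 13 against Dihydrorotenone (41.5%). Idi1 differed by -1.51 (Antimycin A minus AEG 3482) and -1.62 (Cardamonin minus AEG 3482, SE 0.087, limma adjusted p = 5.67e-14). Against Cardamonin, 26 of the 31 members were higher in AEG 3482 and 3 lower, where 32.7% of all genes were higher and 22.6% lower. The 3 lower in AEG 3482 were Npc1 (0.76, Cardamonin minus AEG 3482, SE 0.066, limma adjusted p = 4.84e-10), Abca1 and Nr1h3, and Ebp and Abcg1 did not pass.

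Antimycin A and Dihydrorotenone block different complexes of the respiratory chain, and were tested against each other. In Antimycin A 15 of the 31 were lower than in Dihydrorotenone and 2 higher, where 3.91% of all genes were lower and 11.6% higher. Of the synthesis enzymes 11 of 18 were lower and 0 higher, with a median of -0.31 for Antimycin A minus Dihydrorotenone. Hmgcs1 differed by -0.67 (Antimycin A minus Dihydrorotenone, SE 0.082, limma adjusted p = 2.25e-06) and Idi1 by -0.70 (Antimycin A minus Dihydrorotenone, SE 0.087, limma adjusted p = 2.98e-06). Npc1 and Npc2 were the 2 that were higher in Antimycin A. Without Dihydrorotenone replicate 1, the library whose label gives another donor age, 13 of the 31 were lower in Antimycin A and 2 higher (3.83% and 7.76% of all genes), and 11 of the 18 enzymes were lower. Against DMSO, leaving that library out ended the Dihydrorotenone calls of Acat2, Cyp51, Nsdhl, Hsd17b7, Sc5d, Insig1, Srebf1 and Stard4. Doses are not given, so that these are differences between the cultures as treated.

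**Figure D4:**
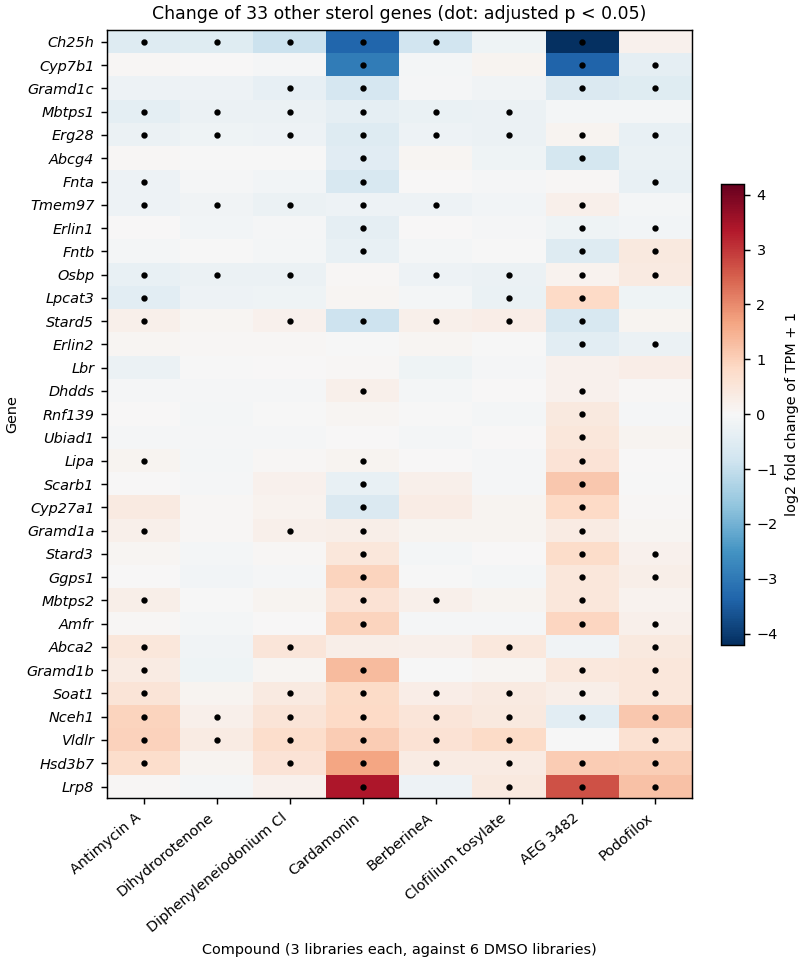
Log2 difference from DMSO on the log2(TPM + 1) scale for 33 other genes of sterol handling (rows) after the 8 compounds (columns), with a dot where limma's adjusted p was under 0.05. Lrp8 rises and Ch25h and Cyp7b1 fall in Cardamonin and AEG 3482, and Vldlr rises in 7 columns.

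A further 33 genes of sterol handling, outside the 31, were listed by function, and all 33 were among the genes tested. In Antimycin A 10 were higher and 7 lower (all genes 21.8% and 15.5%), in Dihydrorotenone 2 and 5 (4.95% and 9.43%), in Diphenyleneiodonium Cl 7 and 6 (14.0% and 11.7%), and in BerberineA 6 and 5 (12.6% and 9.16%). Clofilium tosylate had 7 higher and 4 lower (10.9% and 12.5%), Cardamonin 13 and 13 (37.3% and 33.0%), AEG 3482 19 and 9 (41.3% and 26.8%) and Podofilox 12 and 6 (26.2% and 20%). Many of these counts lie near the shares of all genes, and nothing is read from them about the list. The lipoprotein receptor gene Vldlr rose in 7 comparisons, by 0.98 (SE 0.12, limma adjusted p = 2.38e-07) in Antimycin A, and its relative Lrp8 rose from 2.53 ± 0.394 TPM in DMSO to 36.4 ± 5.65 TPM in Cardamonin (3.40, SE 0.12, limma adjusted p = 2.07e-18), by 2.68 in AEG 3482, by 1.23 in Podofilox and by 0.41 in Clofilium tosylate. Nceh1, a hydrolase of cholesteryl esters, rose in 7 comparisons, most in Podofilox (1.14) and Antimycin A (0.95), and fell in AEG 3482 (-0.44).

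The largest difference of any member or listed sterol gene was in an oxysterol enzyme. Ch25h, which makes an oxysterol that restrains SREBP processing and activates liver X receptors, fell from 28.3 ± 4.64 TPM in DMSO to 1.90 ± 0.527 TPM in Cardamonin (-3.34, SE 0.12, limma adjusted p = 1.63e-18) and 0.578 ± 0.0757 TPM in AEG 3482 (-4.20, SE 0.12, limma adjusted p = 2.91e-20). It also fell in Diphenyleneiodonium Cl (-0.92), BerberineA (-0.80), Antimycin A (-0.54) and Dihydrorotenone (-0.51). Cyp7b1, which breaks oxysterols down, fell in Podofilox (-0.39) and further in both of these compounds (-2.93 in Cardamonin and -3.37 in AEG 3482), from 225 ± 14.8 TPM in DMSO to 29.4 ± 7.84 TPM and 21.1 ± 3.60 TPM. Cardamonin and AEG 3482, which stood apart on the synthesis enzymes, thus shared the direction of Ch25h, Cyp7b1 and Lrp8. Hsd3b7, an enzyme of bile acid synthesis from oxysterols, rose in 7 comparisons, most in Cardamonin (1.67, SE 0.062, limma adjusted p = 4.53e-18), and Scarb1, a receptor for high-density lipoprotein, rose in AEG 3482 (1.15, SE 0.095, limma adjusted p = 8.20e-11).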

How the data were processed

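Total RNA of 30 libraries (8 compounds with 3 each, DMSO with 6) was sequenced after depletion of ribosomal RNA, per the labels' protocols. The deposited table holds TPM per gene, which the authors made with kallisto (0.43.1, per the submitters' processing notes) and tximport, per the series text, which also names DESeq2 for their own tests. The notes list FastQC and the build mm10; the transcript index is not given in the sources used here. Depth is not in a TPM table, so no counting intervals are given. A TPM is a share, so that a large gain of abundant genes lowers all others.

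Ensembl identifiers were matched to symbols through GENCODE M21 (GRCm38) for 29426 of 29861 genes. The TPM values were used as deposited: log2(TPM + 1) of the 13644 genes that reached 1 TPM in 3 or more libraries went into limma (3.58.1, R 4.3.3) with 1 mean per group, an intensity trend and Benjamini-Hochberg adjustment within each contrast at 0.05. The fit was checked on simulated data. For members among the 3 furthest from DMSO past the threshold in any compound, each compound library's value is printed with the lowest, median and highest DMSO value, and other sterol genes are named from the 2 highest and 2 lowest per compound. Members and lists were chosen with earlier results of these data known. Alternatives were other pseudocounts, filters and scalings, fits of the compared groups alone or without the trend, a replicate block, and leaving out each library. No 2 libraries were identical.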

Additional observations from a re-analysis of the deposited data

Results flagged for a closer look

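In the DMSO group, the 31 members were each examined for 1 library far from the other 5, by Dixon's ratio of the gap to the range against its critical value for 6 libraries. Chance alone marks about 1 in 20 such groups. The ratio was passed by 3 members. Idi1, the isoprenoid isomerase, was at 32.5 TPM in DMSO replicate 5, where the next library was at 27.6 TPM. Sc5d, the sterol desaturase, was at 23.4 TPM in the same replicate against 20.3 TPM in the next. Summed over the 18 synthesis enzymes, replicate 5 was the highest DMSO library, at 614 TPM where the next was at 553 TPM. The flags of Idi1 and Sc5d are therefore not independent, and all 8 comparisons use this library. Without it the synthesis median was -0.52 in Antimycin A and 0.18 in AEG 3482, where it was -0.56 and 0.14 with it. Srebf1, the transcription factor gene, was at 75.8 TPM in DMSO replicate 2 against 68.8 TPM.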

How the results depend on the processing

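Of the 167 member changes called against DMSO, 131 kept their call in every setting and 36 lost it in at least 1 (12 under median-ratio scaling, 25 with the compared groups fitted alone), and 0 changed sign. The count of members changed in Dihydrorotenone, 14, was 7 under median-ratio scaling, 8 under quantile normalization and 3 with the groups fitted alone, and ran from 6 to 14 with single libraries left out, lowest without Dihydrorotenone replicate 1. A pseudocount of 5 moved the synthesis median to -0.46 in Cardamonin, -0.43 in Antimycin A and -0.32 in Diphenyleneiodonium Cl. In AEG 3482 the synthesis median was 0.033 under median-ratio scaling, 0.012 under quantile normalization and 0.064 when the 20 genes of highest level were left out of the rescaling, and the efflux and receptor median -0.44 and -0.48 under the first 2. Under median-ratio scaling the median of all genes in AEG 3482 moved from 0.0965 to 0.00178. The efflux and receptor median in Cardamonin was 0.089 under quantile normalization and ran from -0.036 to 0.14 with single libraries left out (highest without Cardamonin replicate 2). The cause of these shifts was not tested. Of the synthesis enzymes, over all settings run, the count lower in Dihydrorotenone ran from 2 to 10 (9 as reported), the count higher in AEG 3482 from 4 to 8 (8) and the count lower there from 2 to 4 (4), and the single enzyme called higher in Antimycin A or Clofilium tosylate was lost in some settings, while 1 was gained in Dihydrorotenone. Whether replicate numbers pair the libraries was not settled. The correlation of deviations over 108 same-numbered pairs was -0.107 to 0.151. Its median was 0.00799, against 0.000813 for pairs of different number. Of 27 libraries, 13 correlated best with their own number, and these values were not set against chance. With the number as a replicate block, 15 of the 167 calls were lost, and the efflux and receptor median in Dihydrorotenone was -0.16. Over 868 combinations of a member and 1 of the 28 pairs of compounds, the direct contrasts gave 456 calls with the block and 432 without it. No share of all genes over these pairs stands beside those totals, so nothing is read from them about the members. Depth is unknown and limits the precision of low members such as Abcg1.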

Other observations

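Among the other sterol genes, 3 that moved in most comparisons are given here, chosen after their values were seen. Soat1, which esterifies cholesterol for storage, rose in 7 comparisons with differences of 0.12 to 0.81 over the 8 compounds. Erg28, a scaffold of the sterol demethylation enzymes, fell in 7 and rose in 1, with differences of -0.53 to 0.11. Mbtps1, the protease that makes the first cut in SREBP, fell in 6, with differences of -0.42 to -0.091.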
